A study of Mus musculus with 28 samples.

Results

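The serpins are a family of structurally related proteins, most of which inhibit proteases. Their genes were taken here as those whose name in the scanner files is Serpin followed by a clade letter, from a to i, and a number. This gave 75 probes for 56 gene names, out of 28034 gene names on the array. Of the 56, 44 were well above background in the sample channel on at least 2 of the 28 arrays and were tested, among 21047 genes tested in all. A gene could pass that filter through the group in which it is high, so counts over the 44 are descriptions and support nothing by themselves.

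An inhibitory serpin offers a protease an exposed loop as bait. When the protease cuts the loop, the serpin refolds and traps the enzyme in an inactive complex. Hepatocytes make and secrete most serpins of blood plasma, among them alpha-1-antitrypsin (the Serpina1 genes), antithrombin (Serpinc1), heparin cofactor II (Serpind1), alpha-2-antiplasmin (Serpinf2) and C1 inhibitor (Serping1), which restrain inflammation, clotting, fibrinolysis and complement. Clade B serpins act mostly inside cells, Serpina6 and Serpina7 carry steroid and thyroid hormone rather than inhibit proteases, and Serpinh1 is Hsp47, the collagen chaperone of the endoplasmic reticulum.

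The study compared liver cultures grown from single Lgr5+ cells with tissues and sorted cells of C57BL/6 mice. The 13 groups were a liver organoid in differentiation medium (DM, 1 array, without a biological replicate according to its label), liver organoids in expansion medium (EM, 2 arrays), Lgr5-sorted cells taken 6 days after the hepatotoxin carbon tetrachloride (CCl4, 2 arrays), duct cells sorted for the surface antigen Mic1-1c3 (2), the hepatocyte fraction (2), liver 3 days and 13 days after CCl4 (2 each), pancreas (2), muscle (3), brown adipose tissue (BAT, 3), white adipose tissue (WAT, 3), and 2 sets of undamaged liver, called whole liver (2) and adult liver (2). The labels give no age or sex. Each sample was labelled with Cy3 and hybridised beside a commercial mouse reference RNA in Cy5. Every level below is a log2 ratio of sample over reference RNA for 1 probe, and levels of different probes are not compared. Where nothing states that arrays came from separate animals or cultures, p-values measure only the spread between arrays, and the number of arrays limits the precision.

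A difference is called when limma's moderated test, adjusted by Benjamini-Hochberg over all genes tested, gave a p under 0.05 and the log2 change was at least 1. Where no array of a group was well above background, the change is given as at least N-fold. On the dim arrays the Cy3 signal was first raised to the lowest signal among probes well above background on that array, if it was below that. The bound is then the smaller of the fold in Cy3 signal, after normalisation between arrays, and the fold in the ratio of Cy3 over Cy5. Where no signal needed raising, the bound can equal the change between group means, and it is then given as such. No bound allows for the spread between arrays. In 61 of the 97 called changes with such a bound the fold in Cy3 signal was the larger, and with no dye swap both are open to dye bias.

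The arrays differed in how much they detected, with 17.7% to 69.1% of probes well above background in Cy3. The arrays of a group correlated over genes at 0.783 or more, except the Lgr5-sorted pair at 0.554. Spots marked as outliers by the scanner software were left out, which removed 6 serpin spots: Serpinh1 on Lgr5-sorted array 1, duct array 1 and hepatocyte array 1, Serpinf1 on hepatocyte array 1 and whole liver array 1, and Serpina1d on whole liver array 1. All 14 hepatocyte markers were above background on both hepatocyte, whole liver and adult liver arrays. Of 11 bile duct markers, 10 were above background on both EM arrays and 11 on both duct arrays, but 1 on both Lgr5-sorted arrays. The Y-linked gene Ddx3y was looked at after the serpin values had been seen. It was above background on the adult liver, hepatocyte, day 3 and DM arrays, and on no EM, Lgr5-sorted, duct or day 13 array. Whole liver was mixed, with Ddx3y above background on array 1, at 2.3, and not on array 2, at -0.7. The sex of the animals therefore cannot be told apart from several of the contrasts, the DM organoid against EM organoids among them.

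The serpin genes lie in clusters. In the coordinates of the files (mouse build mm9), 19 of the 20 clade A genes were on chromosome 12 and Serpina7 was on chromosome X. The 25 clade B genes were on chromosome 13 (13 genes) and chromosome 1 (12 genes). The Serpina1 genes are near-identical copies, and short probes may not separate them. The probes named Serpina1b (chromosome 12, 104968689 to 104970188, minus strand, an interval longer than the probe) and Serpina1c (chromosome 12, 105137263 to 105137322, minus strand) are shown because the loss of alpha-1-antitrypsin below is read from them:
Serpina1b probe: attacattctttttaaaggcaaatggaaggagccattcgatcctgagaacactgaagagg
Serpina1c probe: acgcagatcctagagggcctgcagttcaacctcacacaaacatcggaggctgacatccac
The second is annotated to Serpina1c, Serpina1e, Serpina1d and Serpina1b together. The probe named Serpina1d (chromosome 12, 105001833 to 105001892, minus strand) is annotated to Serpina1d, Serpina1e and Serpina1c, so the Serpina1c and Serpina1d probes are annotated to overlapping sets of genes. The Serpina1b probe was matched to no RefSeq gene and has its name from the files. Exon and UTR positions were not looked up, since no annotation of build mm9 was used here.

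Promoters of liver serpins are textbook targets of hepatocyte nuclear factor 1 (HNF1) and of C/EBP factors. The promoters of 3 clade A serpins that were lower in EM organoids than in adult liver are shown to let that sequence be seen. Each runs from 250 bases before to 50 bases after the annotated start (RefSeq, GRCm38.p6, minus strand), at chr12:103738140-103738439 for Serpina1b, chr12:103773584-103773883 for Serpina1d and chrX:139085170-139085469 for Serpina7. Capitals mark GTTAAT, a half-site of HNF1:
Serpina1b promoter: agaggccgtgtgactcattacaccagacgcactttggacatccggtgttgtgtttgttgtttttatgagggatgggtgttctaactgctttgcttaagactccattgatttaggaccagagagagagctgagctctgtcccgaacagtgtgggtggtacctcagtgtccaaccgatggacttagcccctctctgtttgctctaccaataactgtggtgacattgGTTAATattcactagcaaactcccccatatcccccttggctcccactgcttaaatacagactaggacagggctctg
Serpina1d promoter: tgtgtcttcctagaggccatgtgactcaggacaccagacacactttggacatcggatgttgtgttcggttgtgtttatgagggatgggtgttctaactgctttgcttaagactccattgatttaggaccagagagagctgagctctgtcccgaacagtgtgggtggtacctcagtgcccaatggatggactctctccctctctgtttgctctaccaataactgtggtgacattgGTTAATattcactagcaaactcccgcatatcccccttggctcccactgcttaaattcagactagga
Serpina7 promoter: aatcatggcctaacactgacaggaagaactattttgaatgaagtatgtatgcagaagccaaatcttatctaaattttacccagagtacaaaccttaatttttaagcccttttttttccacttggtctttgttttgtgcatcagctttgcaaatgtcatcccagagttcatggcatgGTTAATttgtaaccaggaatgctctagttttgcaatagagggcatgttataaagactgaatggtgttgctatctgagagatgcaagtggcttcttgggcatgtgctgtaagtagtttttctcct
The match began 26 bases before the start in Serpina1b, 16 in Serpina1d and 74 in Serpina7, for which 2 promoters are listed. Promoters were found for 35 of the 44 genes tested. Of the 21 serpins called lower in EM organoids than in adult liver, 15 had a promoter. Searched on both strands, GTTAAT was in a promoter of 5 of these 15 (33.3%). The 5 were Serpina1b, Serpina1c, Serpina1d, Serpina3c and Serpina7. GTTAAT was in 2 of the 20 others with a promoter (10.0%, Serpinb8 and Serpini2) and in 8.24% of all 27025 genes with a promoter. The C/EBP pattern TTGCNNAA, counted separately and free to overlap it, was in 6 of the same 15 (40.0%). It was in 2 of the 20 others (10.0%) and in 12.2% of all genes with a promoter. Counted per promoter, the shares were 7.1% and 10.8% of all 32851 promoters. The Serpina1 promoters are copies of each other, so these counts are not independent and no test was made.

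The number of serpins above background on every array of a group ran from 9 of 44 in EM organoids and in pancreas to 38 of 44 in liver 3 days after CCl4. It was 10 on the DM array, 12 in Lgr5-sorted cells, 20 in duct cells, 25 in hepatocytes, 35 in liver 13 days after CCl4, 11 in muscle, 23 in BAT, 13 in WAT, 22 in whole liver and 28 in adult liver. The share of all genes tested that was above background on every array also varied, from 23% in Lgr5-sorted cells to 83.7% in BAT. The serpin counts therefore mix the tissue with how much each array detected.

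**Figure D1:**
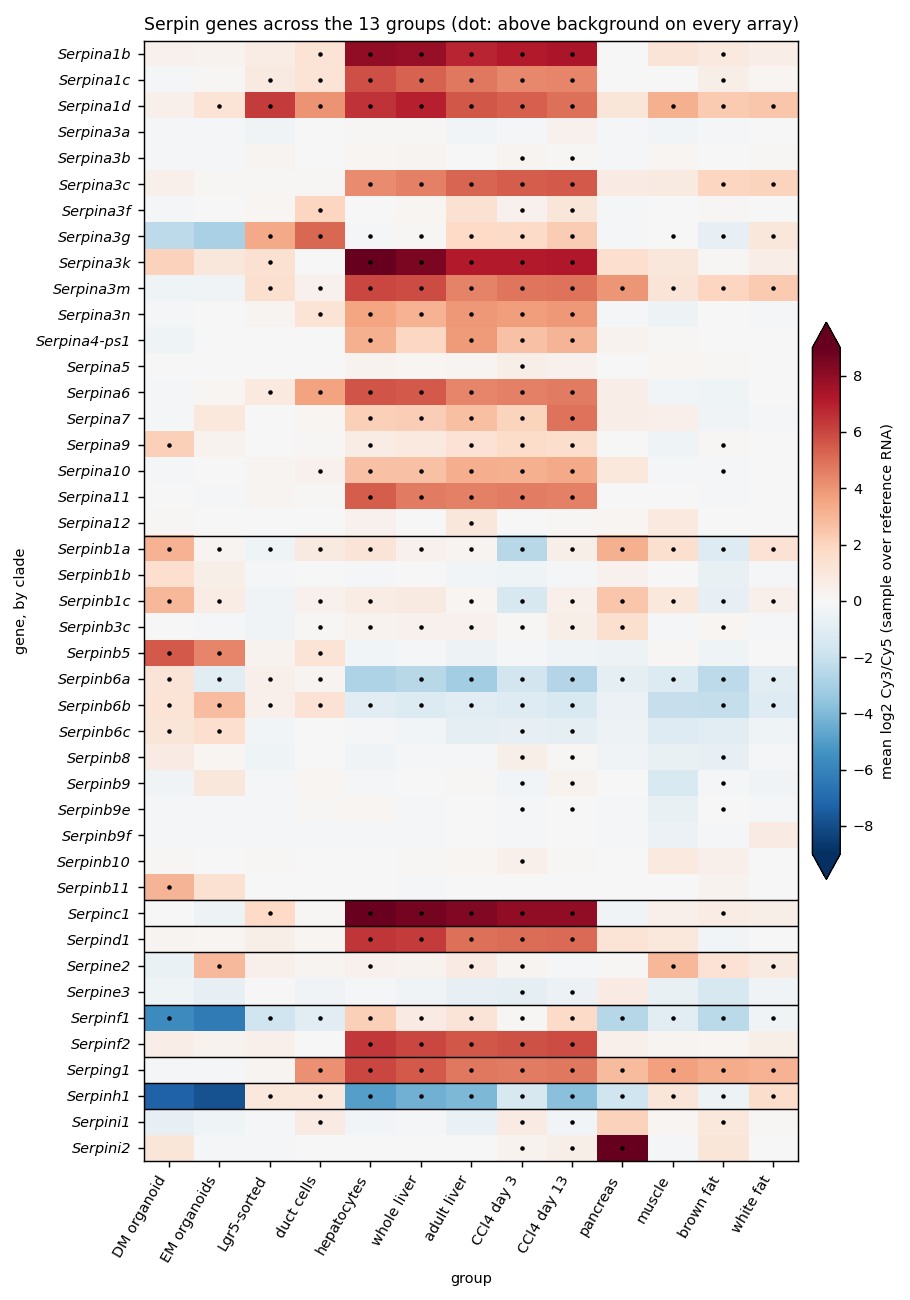
Mean log2 Cy3/Cy5 (sample over reference RNA; colour, ending at 9 on either side) of 43 of the 44 serpin genes tested, down the page by clade, in the 13 groups from left to right; a dot marks a gene above background on every array of the group. Clade A genes such as Serpina1b and Serpina3k, and Serpinc1, Serpind1, Serpinf2 and Serping1, are high in the hepatocyte and liver columns, Serpinb5 is high in the organoid columns, and Serpini2 is high in pancreas, where its mean of 11.89 lies beyond the colour scale.

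The serpins that hepatocytes secrete were far lower in the cultures than in liver. In EM organoids against adult liver, 27 of the 44 serpins were called (61.4%), 6 higher and 21 lower, where 32% of all genes tested were called. The median log2 change was -0.74 over the 44 and -0.09 over all genes. Of the 19 clade A genes 15 were lower and 0 were higher, with a median of -3.94. Serpinc1, Serpind1, Serpinf1, Serpinf2, Serping1 and Serpinh1 were lower too. In RNA from many cells, fewer cells of a type and less RNA per cell cannot be told apart.

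Serpinc1, antithrombin, the main plasma inhibitor of thrombin and factor Xa (probe at chromosome 1, 162932565 to 162932624), measured -0.00 on the DM array and -0.28 and -0.57 on the EM arrays, against 8.23 and 8.39 on the adult liver arrays. No culture spot was above background, and the culture and liver arrays lay far apart. Serpinc1 was at least 127-fold lower in the DM organoid (adjusted p = 5.4e-08) and at least 237-fold lower in EM organoids (adjusted p = 8.4e-10) than in adult liver. A second Serpinc1 probe was called the same way in all 8 comparisons that called the first. It was also called higher in BAT than in WAT, by 1.49. Against adult liver it changed less, by -5.79 in the DM organoid and -5.92 in EM organoids. The bounds therefore hold for the first probe only. Serpind1, heparin cofactor II, another thrombin inhibitor, measured 0.23 on the DM array and 0.27 and 0.04 on the EM arrays, none above background, against 5.11 and 4.82 in adult liver. It was at least 17.9-fold lower in EM organoids (adjusted p = 3.4e-07). Serpinf2, which inhibits plasmin and so protects clots, measured 0.56 on the DM array and -0.05 and 0.65 on the EM arrays, none above background, against 5.70 and 5.50 in adult liver. It was at least 30.9-fold lower in EM organoids (adjusted p = 2.5e-08).

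The Serpina1 genes encode alpha-1-antitrypsin, the main plasma inhibitor of neutrophil elastase. Serpina1b measured 0.36 on the DM array and 0.15 and 0.42 on the EM arrays, none above background, against 7.15 and 6.63 in adult liver. It was at least 34.4-fold lower in the DM organoid (adjusted p = 3.9e-08) and at least 65.7-fold lower in EM organoids (adjusted p = 1.1e-09). Serpina1c was likewise above background on no culture array and was at least 14.7-fold lower in EM organoids (adjusted p = 3.5e-09). The Serpina1d probe differed in that both EM spots were above background, at 1.18 and 1.26, against 5.54 and 5.69 in adult liver (log2 change -4.40, SE 0.89, adjusted p = 0.00043).

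The hormone carriers and several other clade A genes were called lower as well, though not all of these calls held. Serpina6, which binds corticosteroids, measured 0.30 and 0.07 on the EM arrays, 1 of them above background, against 4.03 and 4.74 in adult liver (log2 change -4.20, SE 0.73, adjusted p = 7.6e-05). Serpina7, which binds thyroid hormone, measured 1.09 and 0.86 on the EM arrays, 1 of them above background, against 3.88 and 1.51 in adult liver. The adult liver arrays differed from each other by more than the groups did, and the change (-1.72, SE 0.62, adjusted p = 0.028) was not called without adult liver array 1, at -0.54. Serpina10, an inhibitor of factor Xa that needs protein Z, measured 0.08 and -0.14 on the EM arrays, 1 of them above background, against 2.85 and 3.67 in adult liver (log2 change -3.29, SE 0.24, adjusted p = 7.2e-10). Serpina11 was at least 13.4-fold lower in EM organoids (adjusted p = 1.5e-11), and the pseudogene-labelled Serpina4-ps1 at least 5.64-fold lower (adjusted p = 0.0018), a call lost with whole liver as the control. Serpina12, the adipokine vaspin, was called lower by a log2 change of -1.05, which came to -0.02 against whole liver and was then not called. Serpina5, protein C inhibitor, stayed between -0.13 and 0.64 on all 28 arrays and was called in none of the 15 comparisons.

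The proteases and partners of the plasma serpins were measured beside them. All 8 of the 8 coagulation and kallikrein proteases tested (F2, F7, F9, F10, F11, F12, Klkb1 and Proc) were lower in EM organoids than in adult liver, with a median log2 change of -5.10. Klkb1, plasma kallikrein, changed by -6.33, SE 0.35, adjusted p = 2.1e-11, and F2, prothrombin, by -7.38, SE 0.57, adjusted p = 1.9e-09. All 4 of the 4 complement proteases tested were lower, with a median of -4.48, and so were all 6 of the 6 genes on steroid and thyroid hormone action, with a median of -4.10. On the same arrays 14 of the 14 hepatocyte markers were lower in EM organoids (median -4.94), with mean log2 ratios of 1.02 to 1.08 on the EM arrays against 6.17 to 6.27 on the adult liver arrays, and 9 of the 11 bile duct markers were higher (median 4.70). The part of cell type in the serpin changes was not tested.

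**Figure D2:**
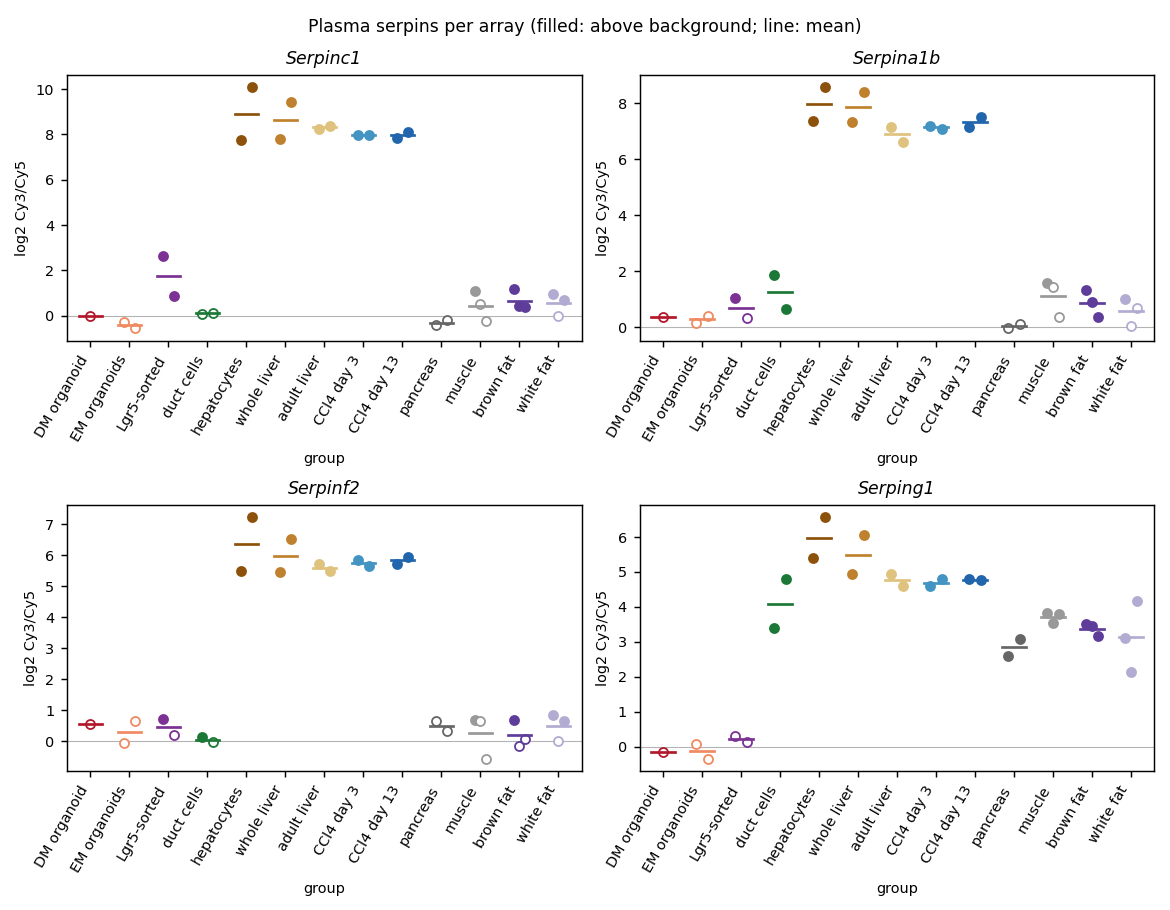
Log2 Cy3/Cy5 per array (vertical axis) of Serpinc1, Serpina1b, Serpinf2 and Serping1 in the 13 groups (horizontal axis); filled points are above background, open points are not, and lines are group means. For Serpinc1, Serpina1b and Serpinf2 all hepatocyte and liver arrays lie above 5 and all other arrays below 3, while Serping1 also lies above 2 in duct cells, pancreas, muscle, BAT and WAT.

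Serpinc1, Serpind1, Serpinf2, Serping1 and the Serpina1b, Serpina1c and Serpina1d probes were also called lower in sorted duct cells than in hepatocytes. Of the 19 clade A genes, 12 were lower and 2 were higher. In duct cells against hepatocytes, 24 of the 44 serpins were called (54.5%), 7 higher and 17 lower, where 23.2% of all genes tested were called. Serpinc1 measured 0.06 and 0.13 in duct cells, on neither array above background, against 7.73 and 10.11 in hepatocytes. It was 454-fold lower between group means (adjusted p = 1.2e-09), and the second Serpinc1 probe changed by -6.67. Serpina1b measured 1.86 and 0.66 in duct cells, above background on both arrays, against 7.36 and 8.59 in hepatocytes (log2 change -6.71, SE 0.49, adjusted p = 1.4e-09). The groups did not overlap for either gene. Serpina6 and the Serpina1d probe differed less. Serpina6 measured 2.16 and 5.10 in duct cells against 4.43 and 6.83 in hepatocytes, with overlap between the groups (log2 change -2.00, SE 0.73, adjusted p = 0.042). Duct and hepatocyte arrays of the same number shared a slide, and Serpina6 was lower in duct cells on each slide. Serpina1d measured 3.10 and 5.03 in duct cells against 5.35 and 7.70 in hepatocytes (log2 change -2.46, SE 0.89, adjusted p = 0.041). Both calls were lost without duct array 1, at -0.53 and -1.49, without hepatocyte array 2, at -0.80 and -1.28, and with quantile normalisation. Hepatocyte markers averaged 1.78 to 2.44 on the duct arrays, with 9 of 14 above background on both, against 6.03 to 8.36 on the hepatocyte arrays.

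Serping1, C1 inhibitor, which blocks the first proteases of the classical complement pathway and plasma kallikrein (probe at chromosome 2, 84605968 to 84607474), was not confined to hepatocyte samples. It measured 3.39 and 4.79 in duct cells against 5.39 and 6.57 in hepatocytes, and its log2 change of -1.89, SE 0.51, adjusted p = 0.0066 turned to 0.37 with quantile normalisation. In the cultures it measured -0.15 on the DM array and 0.09 and -0.34 on the EM arrays, none above background. EM organoids were at least 10.5-fold lower than duct cells (adjusted p = 2e-06) and at least 17.0-fold lower than adult liver (adjusted p = 1.3e-07). Of the 4 complement proteases tested, 3 were lower in EM organoids than in duct cells.

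Serpinf1, pigment epithelium-derived factor, a secreted serpin with no known protease target (probe at chromosome 11, 75223568 to 75223627), measured -5.76 on the DM array and -6.67 and -6.10 on the EM arrays, 1 EM array above background, against 1.18 and 1.20 in adult liver. The log2 change was -6.95, SE 0.34, adjusted p = 5.4e-11 in the DM organoid and -7.57, SE 0.28, adjusted p = 8.2e-13 in EM organoids. Duct cells were between, at -0.78 and -1.22, and EM organoids were lower than these too (log2 change -5.38, SE 0.28, adjusted p = 1.6e-10). A second Serpinf1 probe was called the same way in all 12 comparisons that called the first.

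The Serpina3 genes, a group expanded in mice and related to human alpha-1-antichymotrypsin, held genes high in liver and a gene high in sorted non-hepatocyte cells. Serpina3k measured 2.11 on the DM array and 0.01 and 2.08 on the EM arrays, none above background, against 7.19 and 7.10 in adult liver. Between group means it was 68.6-fold lower in EM organoids (log2 change -6.10, adjusted p = 1.3e-06), with the 2 EM arrays far apart. A second Serpina3k probe, also called lower there, changed by -3.73. Serpina3c and Serpina3n were above background on no culture array, and were at least 22.8-fold (adjusted p = 1.7e-06) and at least 8.92-fold (adjusted p = 1.5e-09) lower in EM organoids than in adult liver. Serpina3m measured -0.40 and -0.18 in EM organoids, 1 array above background, against 4.65 and 4.26 in adult liver (log2 change -4.75, SE 0.94, adjusted p = 0.00032). It was also high in pancreas, at 4.94 and 2.99. Serpina3a and Serpina3b were called in none of the 15 comparisons.

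Serpina3g, described in mouse blood cells as an inhibitor of lysosomal cysteine proteases (probe at chromosome 12, 105480045 to 105480104), had its highest group mean in duct cells. It measured 4.17 and 6.17 there against -0.16 and -0.08 in hepatocytes (log2 change 5.29, SE 0.62, adjusted p = 1.1e-06). Serpina3f was also higher in duct cells, at 1.69 and 2.19, and above background on no hepatocyte array, at least 3.58-fold higher (adjusted p = 2.7e-05). In culture Serpina3g measured -2.36 on the DM array, not above background, and -3.06 and -2.81 on the EM arrays, 1 of them above background. EM organoids were lower than duct cells (log2 change -8.11, SE 0.62, adjusted p = 6e-09) and lower than adult liver, which measured 0.76 and 2.79 (log2 change -4.71, SE 0.62, adjusted p = 3.2e-06). The EM arrays were the lowest of all 28 for this gene. All 10 of the 10 endothelial markers were above background on both duct arrays, where they averaged 3.50 to 4.98 against 1.25 to 1.26 on the hepatocyte arrays, and 9 were higher in duct cells. Of 10 stellate and fibroblast markers 7 were higher in duct cells. The part of these cells in the Serpina3g level was not tested.

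Some clade B genes were higher in culture. In EM organoids against adult liver, 5 of the 14 clade B genes tested were called higher and 0 lower (median 0.63), and the rest were not called. Of all 21047 genes tested, 3031 were called higher and 3701 lower. The sixth serpin that was higher was Serpine2. Serpinb5, maspin, an epithelial serpin first described as a tumour suppressor of mammary cells (probe at chromosome 1, 108778585 to 108778644), measured 5.53 on the DM array and 3.99 and 4.79 on the EM arrays, all above background, against -0.38 and -0.52 in adult liver, neither above background. It was at least 60.6-fold higher in the DM organoid (adjusted p = 1.5e-10) and at least 27.6-fold higher in EM organoids (adjusted p = 7e-11). Duct cells were between, at 0.77 and 1.74 and above background on both arrays, and EM organoids were higher than these (log2 change 3.14, SE 0.30, adjusted p = 8e-08), a call lost with the scanner software's own log ratio at 1.87 and with Cy3 alone. Duct cells were 2.76-fold higher than hepatocytes between group means (adjusted p = 0.00052), a call lost without duct array 2. No Serpinb5 spot was above background in hepatocytes, pancreas, muscle, WAT, whole liver or adult liver.

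Of the Serpinb6 genes, mouse relatives of the human intracellular inhibitor PI-6, Serpinb6a and Serpinb6b were called between the media and Serpinb6c was not. Serpinb6b measured 1.23 on the DM array and 2.78 and 2.74 on the EM arrays, against -1.28 and -0.65 in adult liver (log2 change 3.73, SE 0.30, adjusted p = 4.2e-09 in EM organoids). It was also higher in EM organoids than in duct cells, at 1.45 and 1.22 (log2 change 1.42, SE 0.30, adjusted p = 0.00079), a call lost with Cy3 alone at 0.72. Serpinb6a ran the other way between the media, at 1.19 on the DM array and -0.92 and -0.95 on the EM arrays, against -3.17 and -3.06 in adult liver. Its log2 change over adult liver was 4.31, SE 0.39, adjusted p = 3.2e-08 in the DM organoid and 2.19, SE 0.32, adjusted p = 1e-05 in EM organoids. Serpinb6c, above background on no adult liver array, was at least 4.99-fold higher in EM organoids (adjusted p = 4.1e-08).

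Serpinb11, another clade B gene, measured 3.09 on the DM array and 1.23 and 1.51 on the EM arrays, 1 of them above background, and was above background on no liver, duct, hepatocyte or Lgr5-sorted array. It was at least 5.92-fold higher in the DM organoid (adjusted p = 8.7e-10) and at least 2.04-fold higher in EM organoids (adjusted p = 1.6e-06) than in adult liver. Serpinb1a, which inhibits neutrophil serine proteases, measured 3.13 on the DM array and 0.02 and 0.45 on the EM arrays, against 0.56 and -0.09 in adult liver. The DM array was higher than adult liver (log2 change 2.90). The call was lost without adult liver array 2, with the scanner software's own log ratio and with Cy3 alone. The whole liver arrays measured -1.71 and 2.48. Serpinb9, an inhibitor of granzyme B, differed by 0.97 between EM organoids and adult liver, short of the log2 minimum of 1 (adjusted p = 0.0022). A second, dimmer Serpinb9 probe was called higher there, at 1.82, and was also called higher in the DM organoid than in adult liver, at 1.02, and in EM organoids than in duct cells, at 1.55, where the first probe was not called. Of 8 leukocyte and granule proteases tested, 0 were called higher and 0 lower by limma in that comparison.

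In EM organoids against duct cells, 17 of the 44 serpins were called (38.6%), 5 higher and 12 lower, where 26.6% of all genes tested were called. The 5 that were higher were Serpinb5, Serpinb6b, Serpinb6c, Serpinb11 and Serpine2, which were also higher in EM organoids than in adult liver. Both comparisons use the same EM arrays, so this repeat adds no separate evidence. Among those lower were Serpinh1, Serpina3g, Serpinf1 and Serping1.

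**Figure D3:**
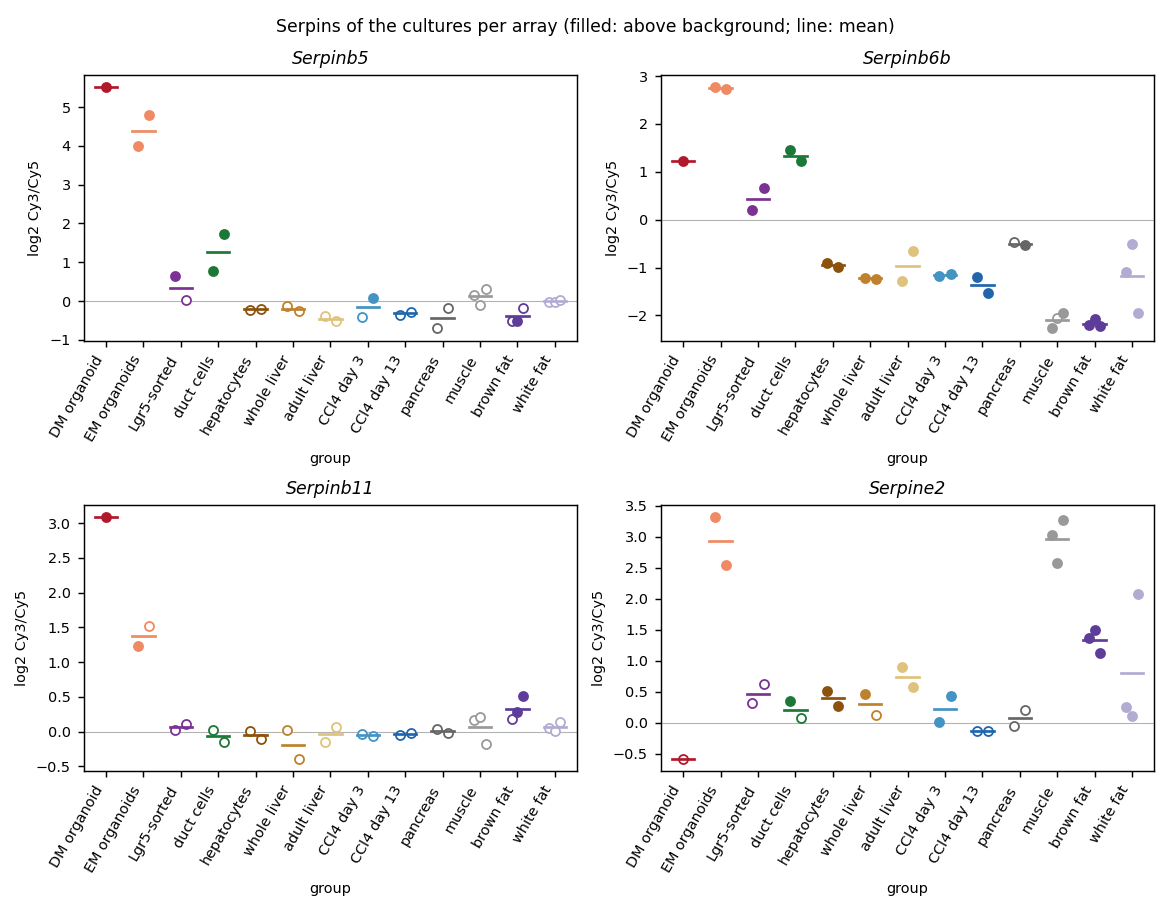
Log2 Cy3/Cy5 per array (vertical axis) of Serpinb5, Serpinb6b, Serpinb11 and Serpine2 in the 13 groups (horizontal axis); filled points are above background, open points are not, and lines are group means. Serpinb5 is highest on the 3 organoid arrays and Serpinb6b on the EM arrays, Serpinb11 lies at 3.09 on the DM array and below 2 on all others, and Serpine2 lies at -0.58 on the DM array and above 2 on the EM arrays.

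Serpine2 was among the serpins that differed between the media. In the DM organoid against EM organoids, 10 of the 44 serpins were called (22.7%), 7 higher and 3 lower, where 10.2% of all genes tested were called. The DM group is 1 array, assumed to vary like the other groups. Ddx3y was above background on it and on neither EM array, so sex and medium cannot be told apart. Serpine2, protease nexin 1, which inhibits thrombin and plasminogen activators at cell surfaces (probe at chromosome 1, 79793476 to 79796093), measured -0.58 on the DM array, not above background, against 3.32 and 2.55 on the EM arrays, at least 2.46-fold lower (adjusted p = 0.00012). EM organoids were higher in Serpine2 than duct cells, at 0.35 and 0.08 (log2 change 2.72, SE 0.43, adjusted p = 4.4e-05), and than adult liver, at 0.90 and 0.58 (log2 change 2.20, SE 0.43, adjusted p = 0.0003).

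Of 8 genes of the plasminogen system and its partners, 2 were higher in the DM organoid than in EM organoids and 0 lower. Plat, tissue plasminogen activator, was higher (log2 change 1.36, SE 0.29, adjusted p = 0.0028). In EM organoids against adult liver, Plat (log2 change 3.75, SE 0.23, adjusted p = 8.9e-11) and Plaur, the urokinase receptor (log2 change 3.76, SE 0.26, adjusted p = 3.6e-10), were higher, and Plg, plasminogen itself, was lower (log2 change -6.56, SE 0.46, adjusted p = 5.4e-10).

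Serpins called higher in the DM organoid than in EM organoids were mostly of clade B. Among them were Serpinb6a (log2 change 2.12), Serpinb11 (1.72), Serpinb1c (2.35), Serpina9 (1.79) and Serpinb5 (1.14). The last 3 calls were each lost without EM array 1, with the scanner software's own log ratio, with Cy3 alone and with a normexp offset of 16. That of Serpinb6a was lost with Cy3 alone and with quantile normalisation, at 1.82. The change of Serpinb1b, 1.03, with the DM spot below background, turned to -0.50 with the scanner software's own log ratio and to -0.18 with Cy3 alone. Serpinb6b was lower (log2 change -1.52), but was not called with Cy3 alone or with the scanner software's own log ratio. Serpinb9, below background on the DM array, was called lower, by at least 1.2-fold. That call was lost with Cy3 alone, and the second Serpinb9 probe, at -0.81, was not called. Of the 21 serpins lower in EM organoids than in adult liver, 0 were called between the media by limma, and 0 had an unadjusted p under 0.05. Of the 14 hepatocyte markers, 3 were higher in the DM organoid. In the DM organoid against adult liver, 29 of the 44 serpins were called (65.9%), 9 higher and 20 lower, where 28.2% of all genes tested were called.

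**Figure D4:**
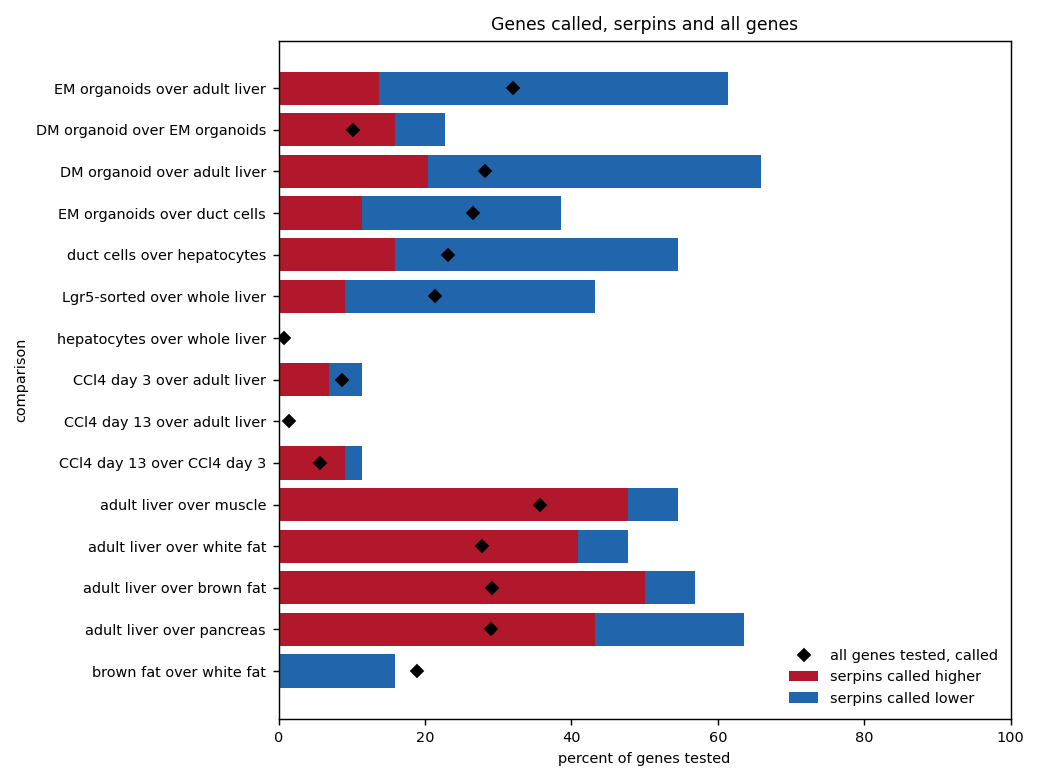
Percent of the 44 serpin genes tested that were called higher or lower (stacked bars) in each of the 15 comparisons, with the percent of all genes called as a diamond. The bars stand well above the diamonds for the cultures and duct cells set against liver or hepatocytes, and for adult liver against BAT, WAT and pancreas, and near 0 for hepatocytes against whole liver and day 13 against adult liver.

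Serpinh1 (probe at chromosome 7, 106493971 to 106494030), the chaperone that collagens need to fold, was low in cultures and hepatocytes. Its highest values were in WAT, muscle and the kept arrays of duct cells and Lgr5-sorted cells. It measured -7.30 on the DM array and -7.95 and -7.67 on the EM arrays, 1 of these 3 spots above background, against -4.19 and -3.85 in adult liver (log2 change -3.79, SE 0.27, adjusted p = 3.6e-09 in EM organoids). Duct cells measured 0.92 on the array kept, and EM organoids were lower (log2 change -8.73, SE 0.32, adjusted p = 9.2e-12), with a change of -8.26 when the dropped duct spot was kept. Duct cells were higher than hepatocytes, at -4.92 on the array kept (log2 change 5.84, SE 0.37, adjusted p = 1.9e-09), with a change of 5.62 when the dropped spots were kept.

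Collagens moved in the same comparisons. Of 10 collagen chains and collagen-processing genes, 8 were lower in EM organoids than in duct cells (median -4.08), and 8 were higher and 1 lower in duct cells than in hepatocytes (median 2.41). In EM organoids against adult liver 2 were higher and 6 lower (median -1.15). The 10 stellate and fibroblast markers, 3 of them also on the collagen list, averaged -4.25 to -3.99 on the EM arrays, with 5 above background on neither, 1.58 to 2.00 on the duct arrays, -2.12 to -2.05 on the hepatocyte arrays and -1.49 to -1.21 on the adult liver arrays. Their part in the Serpinh1 and Serpinf1 changes was not tested.

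After CCl4 few serpins were called, and Serpinh1 was the clearest. The day 3 and day 13 arrays shared a slide and scan day that held no undamaged liver. Against adult or whole liver, damage therefore cannot be told apart from slide and scan day. In liver 3 days after CCl4 against adult liver, 5 of the 44 serpins were called (11.4%), 3 higher and 2 lower, where 8.67% of all genes tested were called, a share close to that of all genes. At day 13 against adult liver, 0 of the 44 serpins were called by limma, where 1.42% of all genes tested were called, and 3 had an unadjusted p under 0.05. In day 13 against day 3, 5 of the 44 serpins were called (11.4%), 4 higher and 1 lower, where 5.63% of all genes tested were called. Serpinc1 measured 8.23 and 8.39 in adult liver, 7.96 and 7.96 at day 3 and 7.83 and 8.12 at day 13, and Serpina1b measured 7.15 and 6.63, 7.20 and 7.07 and 7.14 and 7.50 in the same order. Neither was called at either time.

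Serpinh1 measured -4.19 and -3.85 in adult liver, -1.58 and -1.31 at day 3 and -3.43 and -4.05 at day 13. The day 3 arrays lay above the adult liver, whole liver and day 13 arrays. The change of day 3 over adult liver was 2.57, SE 0.27, adjusted p = 4.6e-06, and that of day 13 over day 3 was -2.29, SE 0.27, adjusted p = 2.1e-05. Neither call was lost under any alternative run. Of the 10 collagen genes, 8 were higher at day 3 (median 2.10), as in Col1a1 (log2 change 3.94, SE 0.35, adjusted p = 2.3e-07), and 8 were lower at day 13 than at day 3 (median -1.70). Stellate and fibroblast markers averaged -1.49 to -1.21 in adult liver, 0.61 to 0.77 at day 3 and -0.63 to -0.46 at day 13. Their part in the change was not tested.

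The other serpins called after CCl4 were less firm. Serpinf1 measured 1.18 and 1.20 in adult liver, 0.09 and 0.09 at day 3 and 1.69 and 1.70 at day 13. Day 3 was lower than adult liver (log2 change -1.10, SE 0.28, adjusted p = 0.013), which lost its call whichever of the 4 arrays was left out and came to -0.64 against whole liver, and day 13 was higher than day 3 (log2 change 1.61, SE 0.28, adjusted p = 0.001). The Serpinf1 call of day 13 over day 3 was lost with quantile normalisation, at 1.21. Serpinb1a measured 0.56 and -0.09 in adult liver, -3.35 and -1.63 at day 3 and -0.11 and 1.20 at day 13. Its changes at day 3 over adult liver (-2.73, SE 0.82, adjusted p = 0.029) and at day 13 over day 3 (3.04, SE 0.82, adjusted p = 0.023) were both lost without day 3 array 1, at -1.87 and 2.18. Serpinb1a varied widely even between the whole liver arrays, at -1.71 and 2.48, which also differed in Ddx3y.

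Serpinb6a was higher at day 3 than in adult liver (log2 change 1.43, SE 0.32, adjusted p = 0.0042), and Serpini1, neuroserpin, an inhibitor of tissue plasminogen activator, was at least 1.96-fold higher (adjusted p = 0.0043). Both calls were lost against whole liver, at 0.79 and 0.87. Plat was also higher at day 3 (log2 change 1.95, SE 0.23, adjusted p = 8e-06). Serpina7, the thyroid hormone carrier, measured 3.88 and 1.51 in adult liver, 1.84 and 2.16 at day 3 and 4.96 and 4.76 at day 13, higher at day 13 than at day 3 (log2 change 2.86, SE 0.62, adjusted p = 0.0049), a call lost without day 3 array 1 and at 1.78 with the scanner software's own log ratio. Serpinb1c was higher at day 13 than at day 3 by 1.85, a call lost without either day 3 array or day 13 array 2. Ddx3y was above background on both day 3 arrays and neither day 13 array, so sex and time cannot be told apart here.

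**Figure D5:**
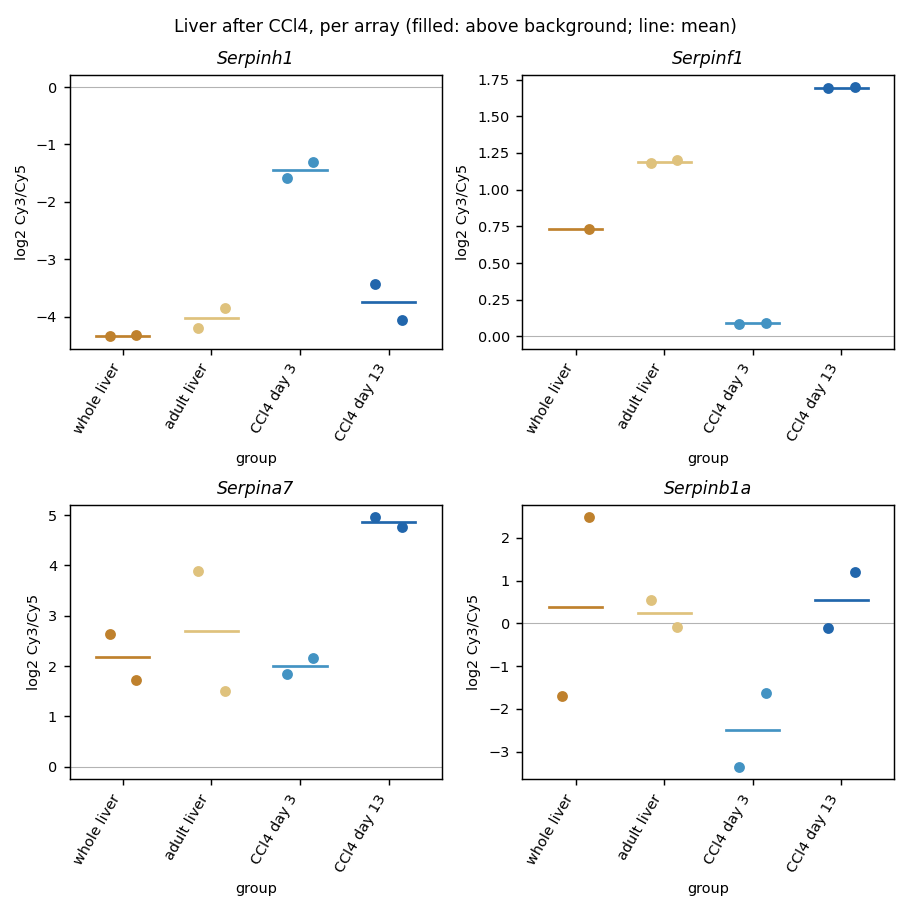
Log2 Cy3/Cy5 per array (vertical axis) of Serpinh1, Serpinf1, Serpina7 and Serpinb1a in whole liver, adult liver and liver 3 and 13 days after CCl4 (horizontal axis); filled points are above background, open points are not, and lines are group means. Serpinh1 is higher on both day 3 arrays, at -1.58 and -1.31, than on any other array drawn, Serpina7 is highest on the day 13 arrays, and Serpinb1a spreads widely within groups.

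Serpinc1, Serpind1, Serpinf2, Serping1 and the Serpina1b and Serpina1c probes were lower in Lgr5-sorted cells than in whole liver. Of the 19 clade A genes, 10 were lower and 1 was higher. In Lgr5-sorted cells against whole liver, 19 of the 44 serpins were called (43.2%), 4 higher and 15 lower, where 21.4% of all genes tested were called. Serpinc1 measured 2.64 and 0.88 in Lgr5-sorted cells against 7.82 and 9.44 in whole liver (log2 change -6.87, SE 0.64, adjusted p = 4.7e-08), and Serping1, above background on neither Lgr5-sorted array, was at least 35.3-fold lower (adjusted p = 8.7e-08). The Serpina1d probe was an exception, at 6.50 and 6.02 in Lgr5-sorted cells against 6.98 on the whole liver array kept, and was not called (log2 change -0.72, SE 1.09, adjusted p = 0.77); the dropped whole liver spot read 5.51. Serpina1b, by contrast, was called lower (log2 change -7.17, SE 0.49, adjusted p = 7.5e-10), at 1.05 and 0.34 in Lgr5-sorted cells against 7.32 and 8.40 in whole liver. The difference between the probes was not tested.

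The 4 serpins higher in Lgr5-sorted cells than in whole liver were Serpinh1, Serpina3g, Serpinb6a and Serpinb6b. Serpina3g measured 2.47 and 4.34 against 0.48 and -0.26 (log2 change 3.29, SE 0.62, adjusted p = 0.00033). Serpinb6a measured 0.87 and 0.09 against -2.79 and -2.16 (log2 change 2.95, SE 0.32, adjusted p = 3.6e-07), and Serpinb6b measured 0.20 and 0.65 against -1.23 and -1.23 (log2 change 1.65, SE 0.30, adjusted p = 0.00023). For these 3 genes the groups did not overlap. Serpinh1 measured 0.92 on the Lgr5-sorted array kept against -4.34 and -4.32 (log2 change 5.25, SE 0.32, adjusted p = 1.6e-09). The dropped spot read -1.60, and with it the change was 3.99. Stellate and fibroblast markers averaged -0.51 to -0.39 on the Lgr5-sorted arrays, with 4 above background on neither, against -1.32 to -1.17 on the whole liver arrays. Their part was not tested. Of 6 cysteine proteases (Ctsl, Ctsk, Ctss, Ctsb and the caspases Casp1 and Casp8), 4 were higher in Lgr5-sorted cells. Ctss, cathepsin S, was among them (log2 change 6.87, SE 0.53, adjusted p = 1.3e-08).

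Macrophage markers moved with these serpins. All 10 of the 10 tested were higher in Lgr5-sorted cells than in whole liver (median 3.66), averaging 4.44 to 6.78 on the Lgr5-sorted arrays against 1.20 to 2.46 on the whole liver arrays, while 8 of the 11 bile duct markers were above background on neither Lgr5-sorted array. Their part in the serpin changes was not tested.

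In hepatocytes against whole liver, 0 of the 44 serpins were called by limma, and 2 had an unadjusted p under 0.05. Of all genes tested 0.751% were called, so the serpin count was close to that share. With 2 arrays in each group, a lack of calls does not show that the groups were alike.

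Adult liver was set against 4 other tissues. Against pancreas, 28 of the 44 serpins were called (63.6%), 19 higher and 9 lower, where 29% of all genes tested were called. Against muscle, 24 of the 44 serpins were called (54.5%), 21 higher and 3 lower, where 35.7% of all genes tested were called. Against BAT, 25 of the 44 serpins were called (56.8%), 22 higher and 3 lower, where 29.1% of all genes tested were called, and against WAT, 21 of the 44 serpins were called (47.7%), 18 higher and 3 lower, where 27.8% of all genes tested were called. These comparisons share the adult liver arrays. In each, clade A genes made up most of those higher in liver. They were 14 of the 19 against pancreas, 15 of the 21 against muscle, 16 of the 22 against BAT and 13 of the 18 against WAT. Serpinc1 was at least 240.2-fold higher than in pancreas (adjusted p = 1.2e-09), and higher than in muscle (log2 change 7.87, SE 0.58, adjusted p = 6.8e-10), BAT (log2 change 7.66, SE 0.58, adjusted p = 1.5e-09) and WAT (log2 change 7.77, SE 0.58, adjusted p = 1.2e-09). The second Serpinc1 probe changed less, by 5.21 over pancreas, 6.34 over muscle, 4.16 over BAT and 5.65 over WAT. Serping1 was closer to the other tissues. It measured 4.95 and 4.61 in adult liver against 3.82, 3.54 and 3.80 in muscle, which was not called, and 2.60 and 3.09 in pancreas, called at 1.94 but -0.47 with the scanner software's own log ratio. Its call over WAT, 1.64, turned to -0.40 with quantile normalisation.

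Serpini2, named pancpin for its expression in pancreas (probe at chromosome 3, 75046278 to 75046307), measured -0.07 and 0.18 in adult liver, neither array above background, against 12.40 and 11.39 in pancreas. Between group means it was 3668-fold lower in liver (adjusted p = 3.9e-11). Outside pancreas it reached 3.39 on BAT array 1 and at most 1.10 on the others. Acinar markers, whose digestive enzymes come from the same organ, averaged 7.96 to 9.14 on the pancreas arrays and ran from 0.16 to 3.12 over the BAT arrays, and 8 of the 8 digestive proteases tested were lower in adult liver than in pancreas (median -7.42). Serpini1 was at least 3.97-fold lower in adult liver than in pancreas (adjusted p = 4.8e-07), and Serpinb1a was lower (log2 change -2.93, SE 0.82, adjusted p = 0.0067), a call lost without adult liver array 2.

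Serpinh1 was lower in adult liver than in all 4 tissues, at -4.19 and -3.85 against 1.10, 1.45 and 0.69 in muscle (log2 change -5.10, SE 0.24, adjusted p = 1.9e-11), 1.56, 1.62 and 1.64 in WAT (log2 change -5.63, SE 0.24, adjusted p = 8.3e-12), -0.08, -0.42 and -0.79 in BAT (log2 change -3.59, SE 0.24, adjusted p = 2.2e-09) and -1.76 and -1.83 in pancreas (log2 change -2.23, SE 0.27, adjusted p = 3e-06). The Serpinh1 call against pancreas was lost with quantile normalisation, at -1.05. Serpine2 was lower in adult liver than in muscle, at 0.90 and 0.58 against 3.02, 2.58 and 3.28 (log2 change -2.22, SE 0.40, adjusted p = 7.9e-05).

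In BAT against WAT, 7 of the 44 serpins were called (15.9%), 0 higher and 7 lower, where 18.9% of all genes tested were called, so serpins were called no more often than all genes. Serpinh1 measured -0.08, -0.42 and -0.79 in BAT against 1.56, 1.62 and 1.64 in WAT (log2 change -2.04, SE 0.22, adjusted p = 1.7e-06). Serpinf1, which adipocytes are known to secrete, measured -2.32, -2.37 and -2.65 in BAT against -0.86, -0.35 and 0.34 in WAT (log2 change -2.16, SE 0.23, adjusted p = 1.2e-06), and the groups did not overlap for either gene. Serpinb1a (-2.49), Serpina3g (-1.77), Serpinb6a (-1.39), Serpinb1c (-1.19) and Serpine3 (-1.06) were also lower in BAT. The Serpinb1c call was kept in 8 alternatives and lost in 12. That of Serpine3 was kept in 15 and lost in 5, at -0.12 with the scanner software's own log ratio. Serpinb6a lost its call with quantile normalisation, at -0.50. Collagens were lower in BAT for 7 of 10 genes (median -1.66), and stellate and fibroblast markers averaged 0.38 to 1.00 in BAT against 1.88 to 2.94 in WAT; their part was not tested.

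The remaining 12 serpins were below the filter and were not tested. They were Serpina1f and 11 clade B genes (Serpinb12, Serpinb13, Serpinb2, Serpinb3a, Serpinb3b, Serpinb3d, Serpinb7, Serpinb9b, Serpinb9c, Serpinb9d and Serpinb9g), and 7 of the 12 were above background in Cy3 on none of the 28 arrays. Among the tested genes Serpinb8, Serpinb10, Serpinb9e and Serpinb9f were called in none of the 15 comparisons.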

How the data were processed

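Agilent arrays with 2 colours, of 28 samples in 13 groups were read from the deposited scanner files, whose foreground and background intensities are linear, per the file headers. The deposited log ratios, in log10 of Cy5 over Cy3, are the scanner software's own and equal the deposited series table. Feature Extraction is version 8.5.1.1 per the submitters' processing notes and 10.5.1.1 per the file headers. RNA was prepared with RNeasy columns and amplified from a T7 promoter, per the labels' protocols.

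Median intensities were background-corrected (normexp, offset 50) and loess-normalised within arrays in limma 3.58.1 (R 4.3.3), leaving out 1639 control spots of 45018 and outlier spots (0.495%). Log2 ratios of Cy3 over Cy5 were computed from the deposited intensities. Each gene was read from its brightest probe in Cy3 (mean over arrays), and genes well above background on at least 2 arrays (21047) entered 1 model of group means over all arrays. Calls need an adjusted p under 0.05 and a log2 change of at least 1. The fit was tested on simulated data. Files name 4261 of the genes, and a RefSeq match names 16786.

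Named genes were, by comparison, up to 4 called serpins with the largest rise and up to 4 with the largest fall whose arrays do not overlap, key members, and up to 2 genes of each partner list. Serpins called in other comparisons and Ddx3y were added after their values were seen. The result for 1 tested serpin is not reported here. The bound on changes of dim genes also took in the ratio after the values were seen. Members and gene lists were chosen with earlier results of these data known. Alternatives covered background correction, normalisation, filters, probe choice, slide and scan day as random blocks, the control liver, left-out arrays and outlier spots.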

Additional observations from a re-analysis of the deposited data

How the results depend on the processing

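Of the counts of called serpins under other settings, 258 stayed within 1.5 times the value given and 24 did not, and of the changes of named serpins 4238 kept their side of the threshold, 258 lost their call and 5 changed sign. With the scanner software's own log ratio the counts were 5 for the DM organoid against EM organoids, 1 for hepatocytes against whole liver, 2 for day 13 against adult liver and 3 for day 13 against day 3. With Cy3 alone, scaled to the 75th percentile, they were 3 for the DM organoid against EM organoids, 1 for day 13 against adult liver and 14 for BAT against WAT. With quantile normalisation they were 1 for day 3 against adult liver, 2 for day 13 against day 3 and 4 for BAT against WAT, and with no fold minimum 8 for day 3 against adult liver and 13 for BAT against WAT. With the other undamaged liver as control they were 1 for hepatocytes, 3 for day 3 and 2 for day 13. The cause was not tested. The changes that turned sign were Serpinb1b in the DM organoid against EM organoids (-0.50 with the scanner's log ratio, -0.18 with Cy3 alone) and Serping1 in adult liver against pancreas (-0.47 with the scanner's log ratio) and, with quantile normalisation, in duct cells against hepatocytes (0.37) and adult liver against WAT (-0.40). Read from Cy3 alone, the median change over all genes shifted by up to 0.82, in Lgr5-sorted cells against whole liver.

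Leaving out 1 array at a time gave 26 for EM organoids against adult liver, 6 to 9 for the DM organoid against EM organoids (6 without EM array 1), 27 to 28 for the DM organoid against adult liver, 15 to 16 for EM organoids against duct cells, 19 to 23 for duct cells against hepatocytes, 17 to 20 for Lgr5-sorted cells against whole liver, 0 to 1 for hepatocytes against whole liver, 2 to 4 for day 3 against adult liver (2 without day 3 array 1, 3 without either adult liver array), 0 to 1 for day 13 against adult liver, 2 to 5 for day 13 against day 3 (2 without day 3 array 1, 3 without day 13 array 2), 20 to 24 for adult liver against muscle, 18 to 23 against WAT, 19 to 25 against BAT, 23 to 25 against pancreas, and 6 to 9 for BAT against WAT. Replicate numbers are not stated to pair samples; with the replicate number as a block the counts were 27 for EM organoids against adult liver, 10 for the DM organoid against EM organoids, 23 for duct cells against hepatocytes, 20 for Lgr5-sorted cells against whole liver and 5 for day 13 against day 3, where crossed numbers gave 4. Crossed numbers and the keeping of outlier spots, which changed no count, were chosen after seeing the data. Within the slides and scan days that held both groups of a comparison, all called serpins with a value kept their sign. Where the arrays of the groups do not overlap, the sign could not have changed, so this adds no evidence. The only called serpin with overlap was 1 gene, in duct cells against hepatocytes. Liver after CCl4 and the DM organoid, against adult liver, could not be looked at this way, for want of a shared slide or day. Nor could EM organoids against duct cells, adult liver against the other tissues, or BAT against WAT. Levels near background limit what can be seen in Lgr5-sorted cells and pancreas, where the fewest probes were detected. The cultures share this limit, with 30.8% of probes well above background on the DM array and 31.4% on EM array 2. Their lowest log2 Cy3 signals among such probes, 8.08 and 7.95, were the highest of all 28 arrays. A rise of dim serpins between the media could therefore be missed.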

Other observations

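Agt, angiotensinogen, is a serpin by structure that the name rule leaves out. It was lower in EM organoids than in adult liver (log2 change -4.73, SE 0.43, adjusted p = 2e-08) and higher in the DM organoid than in EM organoids (log2 change 2.35, SE 0.53, adjusted p = 0.0047). A probe named Gm4931 in the files, which RefSeq lists as Serpina3j, was above background on both hepatocyte arrays, at 3.88 and 5.45. It was also above background on every whole liver, adult liver, day 3 and day 13 array, with means of 4.5, 5.2, 5.7 and 5.9. The same held on every BAT array, with a mean of -0.03.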
